A study of Mus musculus with 12 samples.

Results

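Among 16932 genes above the expression limit in sorted mouse spermatogonia, 48 (0.283%) had a higher value in every control library than in any cryptorchid library. The present account describes 44 of them, as *Osbp2*, *Dnajb8*, *Eno1* and *Azin2* were left out by the rule. The rule kept genes whose mean level over the 12 libraries, in RPM (reads scaled to the size of the library), had a log2 above -1 and whose highest cryptorchid value lay under the lowest control value. The opposite pattern, with every cryptorchid library above every control library, was found in 94 genes. The members were chosen by their log2 RPM values in the 2 groups, so their lower level in the cryptorchid libraries is a description and no result of a test. The rule did not set how large the differences were among replicates of different numbers. It also did not use the spermatid gene *Prm2* or what the genes encode. The sizes and the relation to *Prm2* among cryptorchid libraries still rest on the values that the rule bounded, so their counts are descriptions.

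The study asked how a testis kept in the abdomen affects its spermatogonia. In GFRa1-EGFP reporter mice an operation fixed one testis of each mouse, the left, inside the abdomen, and the right one, still in the scrotum, served as control. At day 10 after surgery, GFRa1+/KIT- spermatogonia were sorted, and RNA amounting to about 200 cells was amplified by Smart-seq2 into 5 control libraries (called WT in the labels, replicates 1 to 5) and 7 cryptorchid libraries (replicates 1 to 7). The cryptorchid state is an operation and not an allele, and both groups carry the same reporter, an EGFP made under the control of *Gfra1*, the gene for a receptor of GDNF. Which libraries came from the same mouse is not stated, and the tissue was digested at a higher temperature for cryptorchid than for control testes, so digestion and condition cannot be told apart. No source says that replicates came from separate mice, so *P*-values measure the spread between these libraries.

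Undifferentiated spermatogonia include the stem cells of the testis. They respond to GDNF through GFRa1 and begin to express KIT when they start to differentiate. In the scrotum the testis is cooler than the body, and germ cells degenerate when it is held at body temperature. *Prm2* encodes a protamine, which packs DNA in the sperm head and is made in spermatids, and its RNA is a textbook marker of late germ cells.

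Control libraries held 4511730 to 24345368 reads counted on genes, cryptorchid libraries 3306771 to 20027902. The libraries formed 2 sets by replicate number: among genes with 1 to 20 reads, 53.25% to 60.81% had an even number of reads in replicates 1 to 3 of both groups, against 48.15% to 50.49% in replicates 4 and above. Replicates 4 and above also had fewer reads (at most 5481947). RNA libraries of the study were run on Illumina HiSeq X or NovaSeq X Plus instruments, and the sources used here do not say which library ran on which. *Gfra1*, which the cells were sorted on, had a log2 difference of 0.52, cryptorchid minus control (limma *P*-value 0.212, adjusted 0.718), *Kit* of 0.45 (0.224, adjusted 0.725) and *Zbtb16*, a marker of undifferentiated spermatogonia, of 0.20 (0.568, adjusted 0.890). *Prm2* measured 9.51, 8.41, 8.41, 9.90 and 10.37 log2 RPM in the control libraries. It measured 4.51, 1.69, 6.46, 7.58, 4.70, 8.89 and 5.30 in cryptorchid replicates 1 to 7. Cryptorchid replicate 6 thus lay within the control range and the other cryptorchid libraries below it. The difference was -3.73 (SE 0.856, limma adjusted *P*-value 0.134; exact two-sided rank sum *P*-value 0.0101, adjusted over 4 genes 0.0404).

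The 44 genes lay on 16 chromosomes, with 6 of them on chromosome 2 (positions below are those of GENCODE vM21 on GRCm38). Their difference of mean log2 RPM, cryptorchid minus control, had a median of -1.22 and ran from -4.20 in *Fscn3* to -0.36 in *Wdr33*, while the median over all genes tested was 0.10. In 14 genes the level was more than 4-fold lower and in 26 more than 2-fold lower. Another 18 genes, such as *Rnps1* (-0.49) and *Sft2d2* (-0.51), differed by less than 2-fold but in every library. The SD over the control libraries had a median of 0.371 for these genes and 0.783 for all genes, as the rule favours genes with little spread. In the limma fit over all genes, 26 of the 44 passed 2-fold and an unadjusted *P*-value of 0.05, as did 2.36% of all genes in the downward direction. At the unadjusted *P*-value alone 43 of 44 passed (3.82% of all genes), and *Wdr33* was the exception. None passed at an adjusted *P*-value of 0.05 in limma (0.00591% of all genes) or in voom on the recovered reads, the members' adjusted values in limma running from 0.104 to 0.622. Other limma fits moved this count, to 31 with the replicate number as a block (3.35% of all genes), to 29 with array weights (1.32%) and to 5 with a term for the set of replicates (0.183%). As the rule used the same contrast, nothing is read from these counts. In these bulk libraries, fewer cells of a type and less RNA per cell cannot be told apart.

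**Figure D1:**
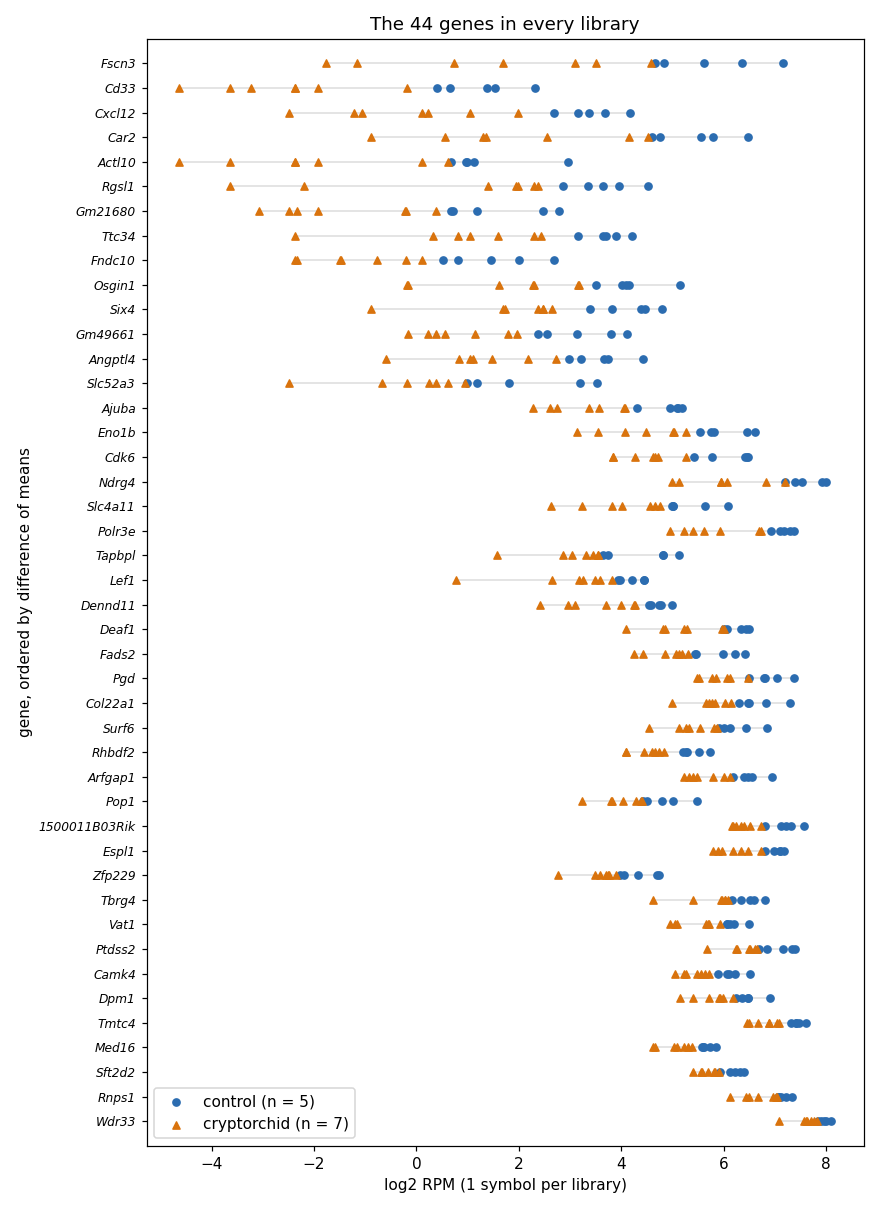
Level of each of the 44 genes (vertical axis, ordered by difference of means) in log2 RPM (horizontal axis), with 1 symbol per library for 5 control (circles) and 7 cryptorchid libraries (triangles). Every triangle lies left of every circle in its row, which is the rule itself. The difference of means shrinks from *Fscn3* (-4.20) at the top to *Wdr33* (-0.36) at the bottom. The gap between the nearest symbols does not follow that order, being 0.08 in *Fscn3* and 0.37 in *Rhbdf2*.

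The rule has a sharp edge. *Pop1*, *Sft2d2* and *Ndrg4* were just inside it, with a lowest control value 0.0052, 0.0065 and 0.0073 log2 units above the highest cryptorchid value. *Dmrt1*, *Nmral1* and *Habp4* were just outside, with gaps of -0.0029, -0.0045 and -0.0069. *Ttc34* had the widest gap (0.74). Cryptorchid replicate 1 was the highest cryptorchid library in 17 of the 44 genes and cryptorchid replicate 2 the lowest in 13. Measured against the control mean, the median over the 44 genes was -0.75 in cryptorchid replicate 1 and -1.45 in cryptorchid replicate 5, and the other cryptorchid libraries lay between them. After centring the libraries on their medians 23 of the 44 genes stayed separated, and after quantile normalization 28 did.

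Sequences upstream of 4 genes are printed to show how far the promoters of the members ranged in CpG, the dinucleotide at which DNA is methylated. They are the part of the RefSeq promoter window (GRCm38.p6, 250 bases before to 50 after a transcript start) that lies before the start and before any annotated exon of the gene, 5′ to 3′ on the plus strand for the first 3 and on the minus strand for *1500011B03Rik*, with each CpG in capitals. *Fscn3* and *Actl10* are genes of late germ cells. *Fscn3*, *Polr3e* and *1500011B03Rik* had reads in every library, and *Actl10* had none in 5 cryptorchid libraries.
Fscn3, chr6:28427651-28427788, plus strand: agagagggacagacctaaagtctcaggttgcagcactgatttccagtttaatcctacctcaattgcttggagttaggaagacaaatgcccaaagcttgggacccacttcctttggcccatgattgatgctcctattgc
Actl10, chr2:154551526-154551775, plus strand: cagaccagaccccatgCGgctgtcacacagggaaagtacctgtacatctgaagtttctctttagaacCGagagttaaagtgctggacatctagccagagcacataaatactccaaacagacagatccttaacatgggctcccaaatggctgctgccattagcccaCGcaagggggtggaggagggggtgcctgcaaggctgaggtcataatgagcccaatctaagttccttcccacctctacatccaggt
Polr3e, chr7:120917528-120917743, plus strand: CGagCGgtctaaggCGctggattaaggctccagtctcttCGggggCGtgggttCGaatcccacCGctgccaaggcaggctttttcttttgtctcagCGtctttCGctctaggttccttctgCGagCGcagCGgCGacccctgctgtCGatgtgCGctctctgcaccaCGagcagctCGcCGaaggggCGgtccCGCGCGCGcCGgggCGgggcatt
1500011B03Rik, chr5:114813977-114814226, minus strand: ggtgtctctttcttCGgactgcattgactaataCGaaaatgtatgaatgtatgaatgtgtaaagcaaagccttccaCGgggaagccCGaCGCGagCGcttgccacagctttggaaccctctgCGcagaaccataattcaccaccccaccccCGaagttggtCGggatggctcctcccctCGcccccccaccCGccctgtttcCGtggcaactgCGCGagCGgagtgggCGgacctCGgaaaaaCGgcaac
The *Fscn3* part of 138 bases held 0 CpG and the *Actl10* part of 250 bases held 3, against 25 in the 216 bases of *Polr3e* and 19 in the 250 bases of *1500011B03Rik*. RefSeq places a transfer RNA gene, n-TLaag4, at chr7:120917517-120917598, and 71 of its 82 bases are the first 71 bases printed for *Polr3e*. Transfer RNA genes are transcribed by RNA polymerase III, of which *Polr3e* encodes a subunit. RefSeq windows were found for 30 of the 44 genes, with a median of 20 CpG per window, compared with 18 over all genes above the expression limit and 7 over all genes with a window.

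A search of both strands found the cAMP response element TGACGTCA in 1 of the 30 genes (*Tbrg4*) and in 1.79% of 32851 mouse windows. The GC box GGGCGG was in 18 of 30 (35.7% of windows), the CCAAT box CCAAT in 12 (37.4%), the TATA box TATAAA in 6 (13.6%), the E-box CACGTG in 5 (7.15%) and the heat shock element core GAANNTTC in 4 (7.86%), some windows holding several of them. *Fscn3* and *Cdk6* were among the genes with TATAAA, and *Actl10*, *Cd33*, *Deaf1* and *Dpm1* held the heat shock core. A gene can have several windows, which raises its chance of a match, and a match is no evidence of binding. The shares are over windows of all genes and were not taken for genes above the expression limit, whose windows hold more CpG (median 18 against 7). The motif counts are therefore not read as a trait of the members.

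Both genes for actin proteins of late germ cells were among the most reduced. *Fscn3* (chr6:28427789-28438622), the testis member of the fascin family of actin bundling proteins, measured 5.61, 4.65, 4.82, 6.35 and 7.16 log2 RPM in control replicates 1 to 5, and a lowest, median and highest of -1.77, 1.70 and 4.57 in the cryptorchid libraries. Its difference was -4.20 (SE 0.94), 18.3-fold. Only cryptorchid replicate 6 came within 0.1 log2 units of a control library. *Actl10* (chr2:154551776-154553276), an actin-like protein, measured 0.98, 0.68, 0.97, 1.13 and 2.96 in control and from -4.63 to 0.62 (median -2.36) in cryptorchid libraries, a difference of -3.37 (SE 0.97). Its values rest on few reads, 12 to 48 reads per control library and 0 to 9 per cryptorchid library, and 5 of the 7 cryptorchid libraries had none. A library without reads is given a value that depends on its depth. With all values below a common floor of -1.92 set to that floor, the difference of *Actl10* was -2.61. The exons of *Fscn3* share 58 bases with *Gcc1* on the other strand, and the strand of the counting is not stated.

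Genes of secreted signals were lower by up to 12.2-fold. *Cxcl12* (chr6:117168535-117181367), the chemokine ligand of CXCR4 that guides germ and stem cells, measured 3.37, 4.17, 3.16, 3.67 and 2.68 log2 RPM in control and from -2.48 to 1.98 (median 0.10) in cryptorchid libraries, a difference of -3.61 (SE 0.76). Cryptorchid replicate 6 was the highest and replicate 2 the lowest of its group, and the gap to the lowest control library was 0.70. *Angptl4* (chr17:33773750-33781830), a secreted inhibitor of lipoprotein lipase, measured 3.65, 3.21, 2.97, 4.42 and 3.73 in control and from -0.60 to 2.72 (median 1.10) in cryptorchid libraries, a difference of -2.35 (SE 0.61). Here cryptorchid replicate 6 was the lowest library and replicate 1 the highest. *Rhbdf2*, which encodes iRhom2, a partner of the sheddase ADAM17, differed by -0.91 (SE 0.27).

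Genes of intracellular signalling and the cell cycle formed the largest group, with 7 members, of which 5 were more than 2-fold lower. *Cdk6* (chr5:3341485-3531008), the kinase that acts with D cyclins in G1 phase, measured 6.44, 6.42, 6.48, 5.78 and 5.42 log2 RPM in control and from 3.83 to 5.26 (median 4.61) in cryptorchid libraries, a difference of -1.66 (SE 0.32). Control replicates 1 to 3 were close together near the top, and control replicate 5 was the lowest of its group. *Ndrg4* (chr8:95676980-95715119), of the NDRG family, measured 7.91, 7.53, 8.0, 7.38 and 7.19 in control and from 4.99 to 7.18 (median 5.95) in cryptorchid libraries, a difference of -1.59 (SE 0.35). It was one of the most abundant members per length, with a mean of 40.7 RPM per kb of exon in control and 15 in cryptorchid libraries, yet cryptorchid replicate 1 nearly reached control replicate 5. *Ajuba* (chr14:54567472-54577558), a LIM domain scaffold protein of cell junctions, measured 5.09, 5.18, 4.30, 5.11 and 4.94 in control and from 2.27 to 4.06 (median 3.36) in cryptorchid libraries, a difference of -1.69 (SE 0.40). Control replicate 3 stood below the other control libraries.

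*Rgsl1* (chr1:153779381-153844142), a relative of the regulators of G protein signalling, measured 3.34, 2.85, 3.64, 3.95 and 4.51 log2 RPM in control and from -3.63 to 2.37 (median 1.95) in cryptorchid libraries, a difference of -3.06 (SE 0.99). Cryptorchid replicates 2 and 6 lay more than 3 log2 units below the other cryptorchid libraries, and replicate 2 had no read. *Osgin1* (chr8:119434124-119446256), an inhibitor of growth induced by oxidative stress, measured 4.02, 3.51, 4.08, 4.16 and 5.15 in control and from -0.19 to 3.18 (median 2.27) in cryptorchid libraries, a difference of -2.44 (SE 0.65). *Camk4* (chromosome 18), a kinase activated by calcium and calmodulin, measured 6.10, 6.21, 6.5, 6.06 and 5.88 in control and from 5.05 to 5.70 (median 5.47) in cryptorchid libraries, which made a small difference of -0.74 (SE 0.23) with little spread in either group. *Espl1* encodes separase, the protease that opens cohesin at anaphase, and differed by -0.84 (SE 0.23).

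Surface, matrix and immune genes included the member with the fewest reads in the cryptorchid libraries. *Cd33* (chr7:43524216-43544428), a lectin of myeloid cells that binds sialic acid, measured 1.37, 2.31, 0.65, 1.54 and 0.41 log2 RPM in control and from -4.63 to -0.19 (median -2.38) in cryptorchid libraries, a difference of -3.88 (SE 0.88) on 6 to 143 reads per control library and 0 to 4 per cryptorchid library. In 6 of 7 cryptorchid libraries it had no read, so most of its cryptorchid values mark the depth of a library, and with the common floor the difference was -2.93. *Fndc10* (chr4:155694342-155696481), a membrane protein with a fibronectin type III domain, measured 0.52, 2.69, 0.82, 1.45 and 2.0 in control and from -2.38 to 0.10 (median -1.48) in cryptorchid libraries, a difference of -2.72 (SE 0.77). It had no read in 2 cryptorchid libraries. *Tapbpl*, which edits the peptides of MHC class I, differed by -1.38 (SE 0.45) and *Col22a1*, a collagen of tissue junctions, by -0.94 (SE 0.26).

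All 3 genes of ion, vitamin and pH proteins were more than 2-fold lower. *Car2* (chr3:14886273-14900770), a cytosolic carbonic anhydrase that interconverts carbon dioxide and bicarbonate, measured 5.56, 4.59, 4.75, 5.78 and 6.48 log2 RPM in control and from -0.90 to 4.53 (median 1.36) in cryptorchid libraries, a difference of -3.50 (SE 0.78). Cryptorchid replicates 4 (4.15) and 6 (4.53) came near control replicate 2, and the other 5 stayed below 2.6. *Slc4a11*, a membrane transporter of the bicarbonate transporter family, differed by -1.4 (SE 0.40). *Slc52a3*, a riboflavin transporter, differed by -2.30 (SE 0.78), with control libraries from 0.98 to 3.52.

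Metabolic genes had smaller differences, from -0.66 to -1.67. *Eno1b* (chromosome 18), an intronless enolase gene nearly identical to *Eno1*, measured 6.44, 6.61, 5.75, 5.81 and 5.53 log2 RPM in control and from 3.13 to 5.26 (median 4.47) in cryptorchid libraries, a difference of -1.67 (SE 0.38). Reads of *Eno1* and *Eno1b* can be exchanged in mapping, and *Eno1* met the same rule, so which of the pair was lower is uncertain. *Pgd* (chr4:149149991-149166771), which makes NADPH in the pentose phosphate pathway, measured 7.38, 6.79, 6.79, 7.04 and 6.49 in control and from 5.48 to 6.48 (median 5.84) in cryptorchid libraries, a difference of -1.0 (SE 0.25). Cryptorchid replicate 1 lay 0.01 below control replicate 5. *Fads2*, a desaturase of polyunsaturated fatty acids, differed by -1.01 (SE 0.29) and *Ptdss2*, a phosphatidylserine synthase, by -0.74 (SE 0.24). *Dpm1*, the catalytic subunit that makes dolichol phosphate mannose, differed by -0.73 (SE 0.25) and *Tmtc4*, of a family of O-mannosyltransferases, by -0.66 (SE 0.22). The exons of *Dpm1* share 895 bases with *Gm20716* on the same strand, and those of *Tmtc4* overlap the noncoding *4930594M22Rik* on the other strand.

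Among transcription factors, *Six4* had the largest difference. This homeobox gene (chr12:73099609-73113456) measured 4.79, 3.38, 4.47, 4.39 and 3.83 log2 RPM in control and from -0.90 to 2.64 (median 2.37) in cryptorchid libraries, a difference of -2.39 (SE 0.61). Cryptorchid replicate 2 was far below the other 6, and the gap between the groups was 0.74. *Zfp229* (chr17:21730795-21769342), a zinc finger gene, measured 3.98, 4.05, 4.74, 4.70 and 4.33 in control and from 2.77 to 3.90 (median 3.71) in cryptorchid libraries, a difference of -0.80 (SE 0.35), with cryptorchid replicate 6 lowest. *Med16* (chr10:79894708-79908923), a subunit of the Mediator complex, measured 5.72, 5.84, 5.62, 5.58 and 5.59 in control and from 4.62 to 5.38 (median 5.08) in cryptorchid libraries, a difference of -0.63 (SE 0.25). Control libraries of *Med16* were within 0.3 of each other. *Lef1*, a nuclear partner of β-catenin in Wnt signalling, differed by -1.24 (SE 0.49) and *Deaf1* by -1.09 (SE 0.32).

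Genes of RNA polymerase III and RNA processing differed by -0.36 to -1.39. *Polr3e* (chr7:120917744-120947432), whose upstream sequence is printed above, measured 7.29, 7.18, 6.92, 7.38 and 7.09 log2 RPM in control and from 4.96 to 6.72 (median 5.60) in cryptorchid libraries, a difference of -1.39 (SE 0.31). Its control libraries were tightly grouped, and cryptorchid replicates 1 (6.72) and 3 (6.69) lay above the other cryptorchid libraries. *Rnps1* (chr17:24414565-24425901), of the exon junction complex, measured 7.34, 7.12, 7.06, 7.08 and 7.22 in control and from 6.12 to 7.04 (median 6.67) in cryptorchid libraries, a difference of -0.49 (SE 0.23). Cryptorchid replicates 1, 3 and 6 of *Rnps1* came within 0.1 of control replicate 3. *Pop1*, a protein subunit of RNase P and RNase MRP, differed by -0.85 (SE 0.33) and *Surf6*, a nucleolar protein of ribosome assembly, by -0.91 (SE 0.28). *Tbrg4*, a mitochondrial RNA-binding protein whose gene hosts the small nucleolar RNA *Snora5c*, differed by -0.75 (SE 0.28). *Wdr33*, which recognises the polyadenylation signal, had the smallest difference of all (-0.36, SE 0.22).

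Vesicle traffic was represented by *Dennd11* (-1.20, SE 0.39), of the DENN domain family, *Arfgap1* (-0.89, SE 0.25), which turns off ARF1 at the Golgi, *Vat1* (-0.74, SE 0.25), of vesicle membranes, and *Sft2d2* (-0.51, SE 0.22), of retrograde transport. The exons of *Vat1* share 226 bases with *Rnd2* on the other strand. Of the 4 genes given no role, *Ttc34* (chr4:154837459-154867127), a tetratricopeptide repeat gene, measured 3.70, 3.16, 4.21, 3.65 and 3.89 log2 RPM in control and from -2.38 to 2.42 (median 1.04) in cryptorchid libraries, a difference of -2.85 (SE 0.74). Cryptorchid replicate 7 had no read of it. *1500011B03Rik* (chr5:114808196-114823468) measured 7.11, 7.32, 6.81, 7.56 and 7.21 in control and from 6.15 to 6.73 (median 6.33) in cryptorchid libraries, a difference of -0.84 (SE 0.22), and had the highest level per length of the 44 genes (55.5 RPM per kb of exon in control and 30.8 in cryptorchid libraries). *Gm21680* differed by -2.97 (SE 0.85), with no read in 2 cryptorchid libraries. *Gm49661* differed by -2.35 (SE 0.61), and all 339 bases of its exons lie in exons of *Rnaseh2a* on the same strand, so its value is uncertain. In all, exons of 8 of the 44 genes overlapped a gene on the other strand, among them those of *Cdk6*, *Lef1*, *Ttc34*, *Col22a1* and *Camk4*, which overlapped antisense genes by 368, 1208, 106, 16 and 72 bases. Reads of such pairs cannot be told apart without the strand.

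Differences were then taken separately in replicates 1 to 3 (3 control and 3 cryptorchid libraries) and in replicates 4 and above (2 control and 4 cryptorchid libraries). The rule forces every member to be lower in both, as 44 of 44 were and 29.3% of all genes. The median difference was -1.04 in replicates 1 to 3 and -1.30 in replicates 4 and above, where all genes had medians of 0.06 and 0.01. The difference was larger in replicates 4 and above in 31 genes and in replicates 1 to 3 in 13, with 53.0% of all genes on the former side.

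Among the genes with a larger difference in replicates 4 and above, *Polr3e* differed by -0.79 in replicates 1 to 3 and by -1.86 in replicates 4 and above. *Angptl4* differed by -1.60 and -3.15, and *Ttc34* by -2.01 and -3.50. Genes with the reverse order included *Cd33*, which differed by -5.27 and -2.69, *Cxcl12* by -4.67 and -2.70, *Six4* by -3.07 and -1.84, and *Tapbpl* by -2.07 and -0.76. The values were close in *Cdk6* (-1.58 and -1.45), *Ndrg4* (-1.48 and -1.52) and *Gm49661* (-2.53 and -2.60). A test of the interaction of group and set in limma passed an unadjusted *P*-value of 0.05 for 0 of the 44 genes (1.59% of all genes) and an adjusted one for no gene (0.0%). The smallest value among the members was 0.063, for *Polr3e*, with an adjusted *P*-value of 0.9996. With so few libraries in each set, this does not show that the sizes were equal. The rule also favours genes with little spread and bounds the values in both sets, so the count of members is a description only.

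**Figure D2:**
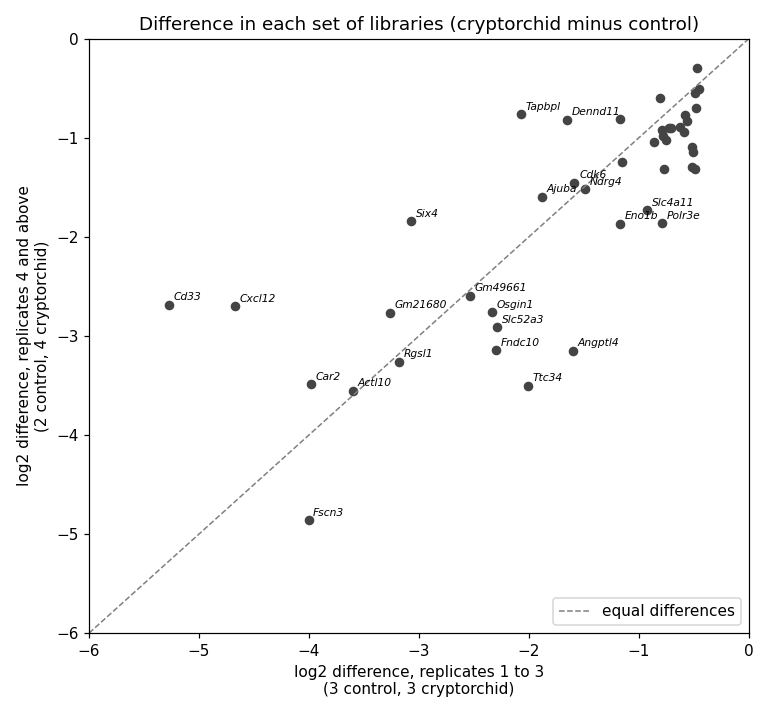
Log2 difference, cryptorchid minus control, of the 44 genes in replicates 1 to 3 (horizontal axis, 3 control and 3 cryptorchid libraries) against replicates 4 and above (vertical axis, 2 control and 4 cryptorchid libraries), with 1 point per gene and names for genes with larger differences. All points lie below 0 on both axes, 31 of them under the dashed line of equal differences and 13 above it.

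The relation to *Prm2* was measured within the 7 cryptorchid libraries, where *Prm2* ran from 1.69 to 8.89 log2 RPM. The rule compared no cryptorchid library with another, but it held each of them below every control library. Cryptorchid replicate 6 had *Prm2* within the control range, so a gene that followed *Prm2* closely could fail the rule there. The members' counts are therefore set beside those of all genes as a description only. Sets of 3 and 4 cryptorchid libraries are too small for a correlation of their own. Pearson's r was above 0 in 30 of the 44 genes and below 0 in 14, while 56.4% of all genes had an r above 0. The members' median r was 0.137 and that of all genes 0.098. The count depended on scaling, since after median centring and after quantile normalization 22 of the 44 had an r above 0. The share of all genes was not taken after these scalings, so the change is not read as a trait of the members. Of all genes 7.23% had an r above 0 at an exact permutation *P*-value under 0.05, and of the members 2 did (*Car2* and *Fscn3*). In the negative direction 3.6% of all genes and 0 members passed. With adjustment over all genes tested, 0 genes passed, the smallest adjusted value being 0.315, and with Spearman's rho 0 passed as well. Before adjustment rho had an exact *P*-value under 0.05 in 5 members, and rho was above 0 in 3 of them. Of all genes 5.52% passed with a rho above 0 and 3.48% with a rho below 0. The smallest *P*-value that the permutations of 7 libraries allow is 0.000198.

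*Car2* followed *Prm2* most closely. Its r was 0.98 (exact *P*-value 0.000595) and its rho 0.96 (exact *P*-value 0.00278), and the lowest and highest libraries of both genes were the same ones, cryptorchid replicates 2 and 6. Without these 2 libraries, which lie farthest from the median of *Prm2*, r was 0.96. *Fscn3* had an r of 0.77 (exact *P*-value 0.0427) and a rho of 0.79 (exact *P*-value 0.048). Without the 2 libraries its r was 0.50, so the relation rests partly on them. *Osgin1* had an r of 0.75 with all libraries and 0.78 without the 2, at an exact *P*-value of 0.0508 over all 7.

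**Figure D3:**
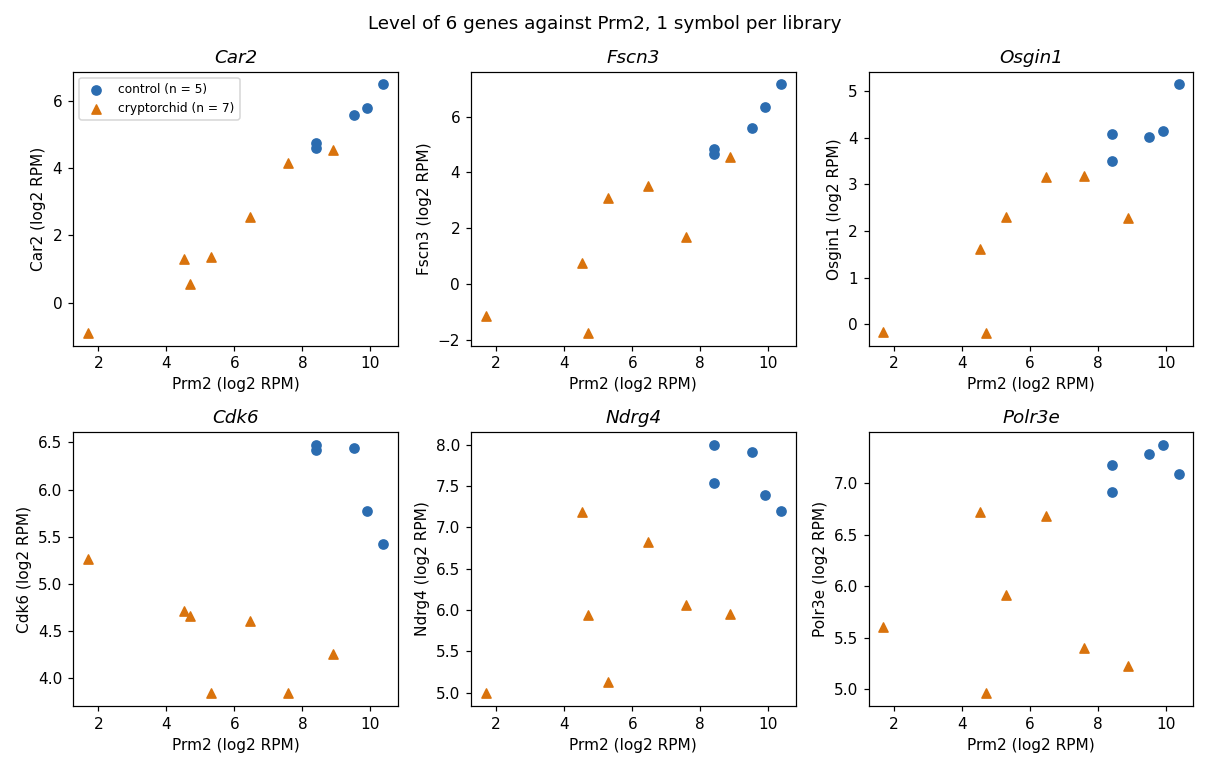
Level of 6 of the genes (vertical axes, log2 RPM) against *Prm2* (horizontal axes, log2 RPM), with 1 symbol per library for 5 control (circles) and 7 cryptorchid libraries (triangles). *Car2* and, with more spread, *Fscn3* and *Osgin1* are higher where *Prm2* is higher among the cryptorchid libraries, *Cdk6* is lower there, and *Ndrg4* and *Polr3e* have an r of 0.32 and -0.15.

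*Actl10* (0.72), *Cd33* (0.68), *Camk4* (0.65), *Gm49661* (0.65) and *Ajuba* (0.61) also had an r above 0.6, at exact *P*-values from 0.0629 to 0.147. Without the 2 farthest libraries the r of *Cd33* was 0.29 and that of *Ajuba* -0.13. At the other end, *Zfp229* had an r of -0.76 (exact *P*-value 0.0504; rho -0.89, exact *P*-value 0.0123) and *Cdk6* of -0.72 (exact *P*-value 0.0621; rho -0.82, exact *P*-value 0.0341). They were higher in the cryptorchid libraries with less *Prm2*. *Med16* (-0.63), *Fndc10* (-0.50), *Angptl4* (-0.46) and *Pgd* (-0.39) followed in that order. The r of *Fndc10* turned to 0.48 without the 2 libraries and that of *Cxcl12* went from 0.55 to -0.90. Over the members, 20 of 44 had an r above 0 without them, against 30 with them. Leaving them out moved the median r from 0.137 to -0.020 in the members and from 0.098 to -0.064 over all genes.

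**Figure D4:**
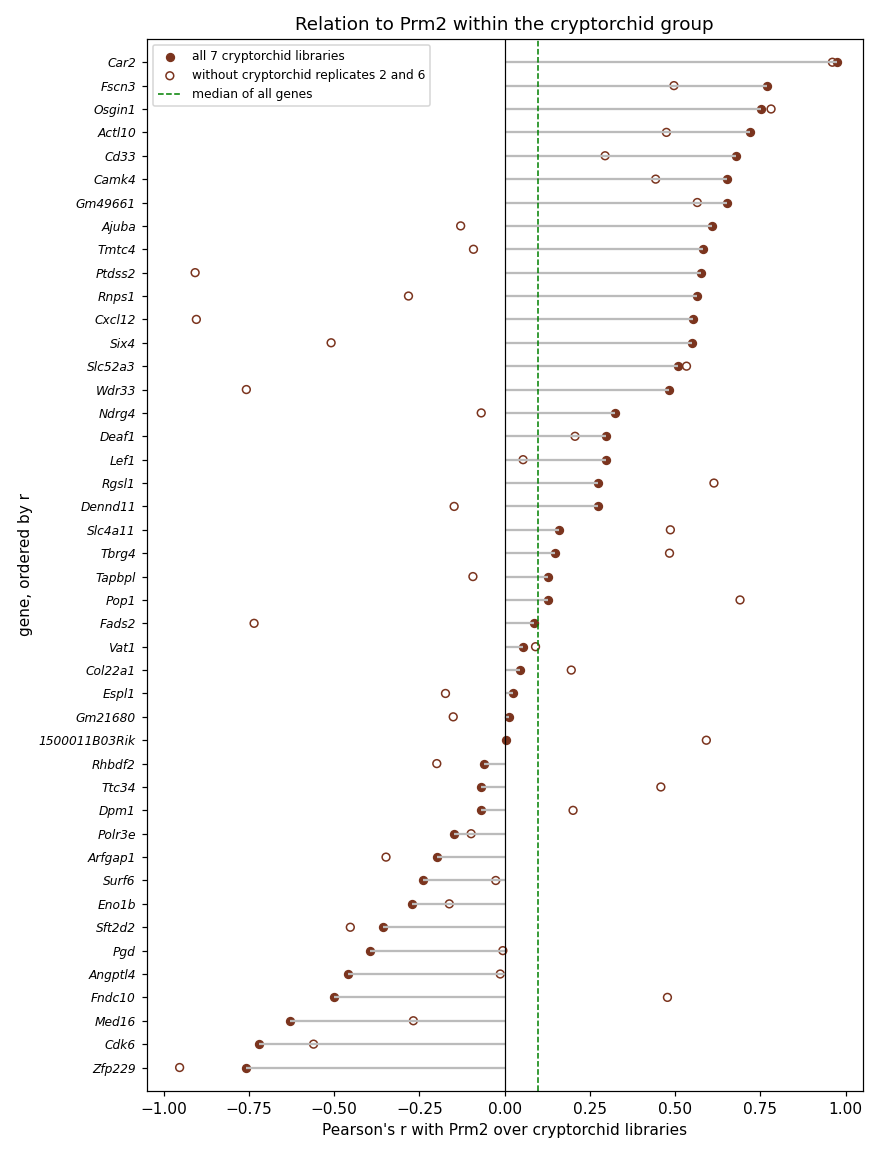
Pearson's r with *Prm2* (horizontal axis) for each of the 44 genes (vertical axis, ordered by r) over all 7 cryptorchid libraries (filled circles) and without cryptorchid replicates 2 and 6 (open circles), with the median r of all genes, 0.098, as a dashed line. The filled circles run from *Zfp229* (-0.76) to *Car2* (0.98), and many open circles, such as that of *Cxcl12* (-0.90), change side.

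The 8 genes with an r above 0.6 included 5 with a promoter window, which held a median of 4.0 CpG (3.0 to 13.0). Windows of 25 other members held a median of 22.2 (1.0 to 37.5). The ranges overlapped, as *Ttc34*, *Gm21680* and *Zfp229*, with r of -0.07, 0.01 and -0.76, had 2, 1 and 8 CpG. The split at 0.6 was chosen after the values were seen, and no test was made of it.

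With *Prm2* as a covariate in the limma fit, the 44 genes had a median difference of -0.99 and all genes one of 0.31. The fit uses the contrast and the values that chose the members, so nothing is read from its direction or its counts. At an unadjusted *P*-value under 0.05 there were 19 of them (3.12% of all genes in the downward direction), and 12 at 2-fold as well (2.92%). After adjustment 0 genes passed, members or others. *Car2* went from -3.50 to -0.46, *Fscn3* from -4.20 to -1.14 and *Osgin1* from -2.44 to -0.72. *Actl10* went from -3.37 to -1.15. The difference of *Cdk6* grew from -1.66 to -2.34, that of *Eno1b* from -1.67 to -2.08 and that of *Fndc10* from -2.72 to -3.44. *Ttc34*, *Gm21680*, *Fads2* and *Dpm1* moved by less than 0.2. Only cryptorchid replicate 6 had a *Prm2* value within the control range, so this fit extrapolates from the slope within groups.

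**Figure D5:**
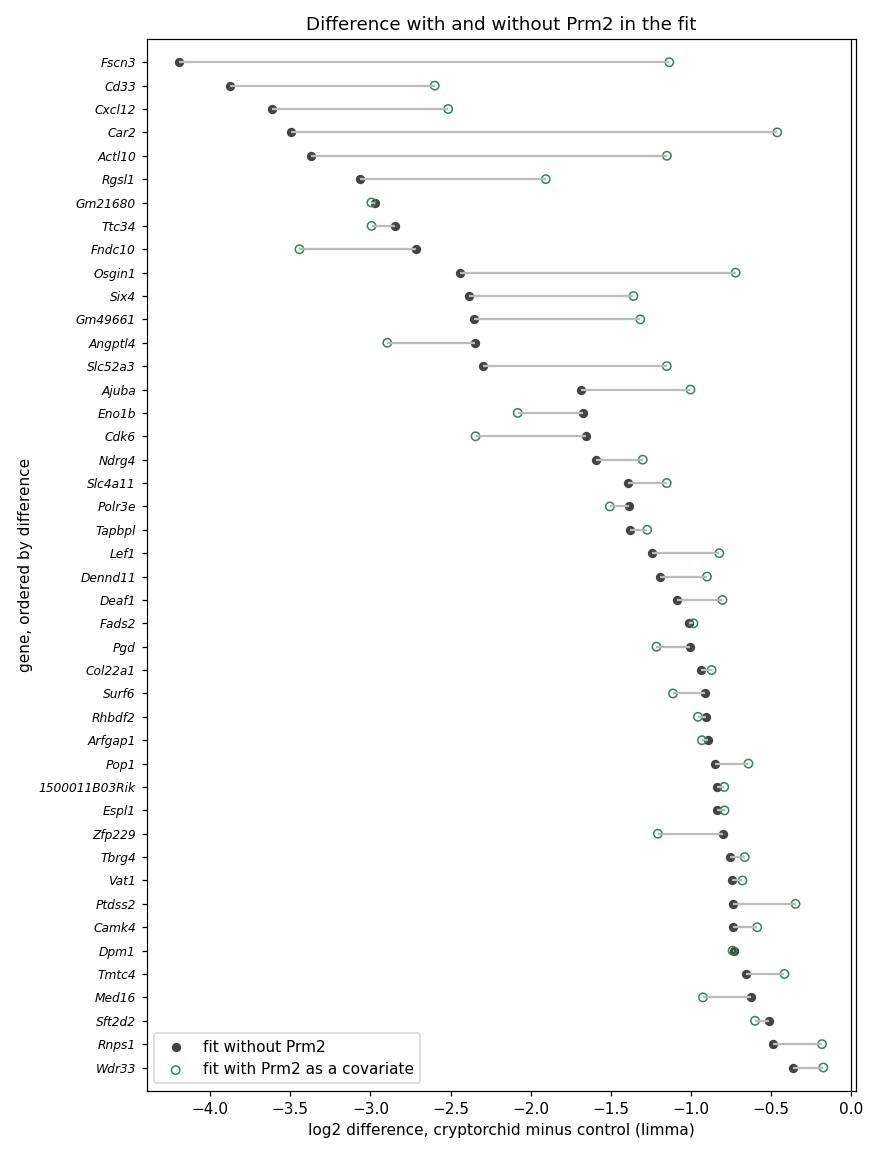
Log2 difference, cryptorchid minus control, of the 44 genes (vertical axis, ordered by the difference) in the limma fit without *Prm2* (filled circles) and with *Prm2* log2 RPM as a covariate (open circles). All circles lie below 0, and *Car2* (-3.50 to -0.46) and *Fscn3* (-4.20 to -1.14) moved most.

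Cryptorchid replicate 6, which the rule places below every control library in each member, was also described without a fit. Its *Prm2* (8.89) was above that of control replicates 2 and 3 (8.41 in both). In this library *Fscn3* (4.57) was 0.08 and *Car2* (4.53) 0.06 log2 units below the lowest control library. *Cdk6* (4.26) was 1.17, *Polr3e* (5.22) 1.70, *Angptl4* (-0.60) 3.57 and *Rgsl1* (-2.19) 5.04 below it. In 19 of the 44 genes this distance was more than 1 log2 unit, and in 8 genes replicate 6 was the highest cryptorchid library. The values of *Angptl4* and *Rgsl1* in replicate 6 rest on 3 and 1 reads. The distance was not taken over all genes, so its size is a description and no cause was tested.

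Lists of genes of cell types and functions were compared between the groups, and the part of other cells in the values above was not tested. Of all genes 2.36% were lower at 2-fold and an unadjusted *P*-value of 0.05 in limma, and the share that was higher was not taken. Of 68 spermatid genes 23 were lower by this test and 0 were higher, with a median difference of -1.43, and 0 passed with adjustment. Their summed level ran from 2105 to 12000 RPM in control and from 450.4 to 9159 RPM in cryptorchid libraries, and every one had reads. Of the 67 besides *Prm2*, 66 had an r with *Prm2* above 0 in the cryptorchid libraries, beside 56.4% of all genes. *Fscn3* was the only one of the 44 genes in this list, and no other member was in any list.

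For the remaining lists the counts are those lower and higher in the same limma test, beside 2.36% of all genes lower. Counts of higher genes have no background, and the small counts are not read as a result. Of 23 genes of undifferentiated spermatogonia 1 was lower and 1 higher, with sums of 1570 to 2248 RPM in control and 1724 to 2608 in cryptorchid libraries. Among 12 genes of differentiating spermatogonia 1 was lower and 1 higher (1160 to 1515 against 1122 to 1898 RPM), and among 32 of spermatocytes 0 and 2 (1146 to 3006 against 1175 to 3384 RPM). Sertoli cell genes had 0 in either direction among 19 tested (391.3 to 1054 against 335.7 to 1063 RPM). Macrophage genes, of the myeloid cells in which *Cd33* is best known, had 0 lower and 1 higher among 10 (57.7 to 150.4 against 38.65 to 207.5 RPM). Leydig cell genes had 0 in either direction among 4 (10.19 to 19.1 against 6.271 to 47.84 RPM) and *Hsd3b6* had no read in any library. Peritubular myoid genes had 1 lower and 1 higher among 6 (33.06 to 82.4 against 9.996 to 54.69 RPM) and endothelial genes 0 and 3 among 8 (25.67 to 49.18 against 36.9 to 74.09 RPM).

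Lymphocyte genes had 0 in either direction among 4 (4.102 to 9.968 against 2.784 to 18.63 RPM), with no read of *Nkg7* in any library, and red blood cell genes 0 in the 1 tested (2.85 to 27.33 against 6.54 to 24.31 RPM), with no read of *Hba-a2*, *Hbb-bs* and *Hbb-bt*. Of 25 genes of glycolysis and lactate, beside *Eno1b* and *Pgd* above, 2 were lower and 1 higher, with a median difference of -0.16 and sums of 1288 to 3703 RPM in control and 1273 to 2567 in cryptorchid libraries. Chaperone and heat shock genes had 0 lower and 3 higher among 31, with a median of 0.30 and sums of 3621 to 10630 against 4639 to 13240 RPM. Of 4 cold-inducible genes 1 was lower, with a median of -0.44 and sums of 308.3 to 720.7 against 376.2 to 552.0 RPM. The median over all genes was 0.10.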

How the data were processed

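RNA was measured in 5 control and 7 cryptorchid libraries of GFRa1+/KIT- spermatogonia, grouped and numbered by the sample titles. The authors trimmed reads with Trim Galore 0.6.6 after FastQC 0.11.8, mapped them to mm10 with HISAT2 2.1.0 (versions from the submitters' processing notes), and used SeqMonk to count them on protein-coding genes. What they deposited are log2 RPM values, unpooled, for 21859 genes. They excluded RNA datasets with excessive duplicates and called genes with a count model (edgeR, per the authors). Here limma was applied to the deposited log2 RPM values, and voom to recovered reads as an alternative. 0 columns belonged to no sample.

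The steps between low values returned whole reads for 100.0% of the values under 1000 reads in every library (tolerance 0.02 reads), a gene without reads being listed at 0.9 reads. Reads carry no molecular identifiers, so read numbers cover counting error only. Over 31 pairs of replicates within a group, differences were 12.8 to 253 times what sampling of reads gives, so each library counted as 1 sample.

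The rule for the 44 genes was applied to the log2 RPM values. Groups were compared with limma 3.58.1 in R 4.3.3 (trend) over the 16932 genes, two-sided, with Benjamini-Hochberg adjustment, and the sets of replicate numbers with a term for the interaction of group and set. Pearson's r and Spearman's rho with *Prm2* were tested two-sided by exact permutation of the 7 cryptorchid libraries for every gene, using scipy 1.17.1, pandas 2.3.3 and numpy 2.4.6 under Python 3.11.15 (plots by matplotlib 3.10.9). On simulated data with 200 of 16932 genes changed by a log2 fold of 3, the limma test recovered 99%, 1.98% of its calls were false, and 4.64% of genes left unchanged passed an unadjusted 0.05. The simulated counts were independent, with the same dispersion for every gene and no effect of set or library. Only better covered genes were changed, so these values check the code and are not the rates of the real comparison. Positions and exons come from GENCODE vM21 (GRCm38, the build of mm10), and promoter windows from RefSeq on GRCm38.p6.

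The members, gene lists and roles were chosen with earlier results of these data known. Every member is named with its difference. Values of the 5 control libraries, with the range and median of the 7 cryptorchid libraries, are given for the 12 members with the smallest limma *P*-values, the 6 with the widest gap, the 6 with the highest and the 6 with the lowest r, and the 4 with the highest level per kb. Alternatives were median centring, quantile normalization, log2(RPM + 1) and log2(RPM + 0.1), no filter and a filter at 2, log2 ratios of mean RPM, the replicate number as a block, a term for the set, array weights, Spearman's rho, deviations of all 12 libraries from group means, and leaving out every library once. Alternatives chosen after seeing the data were a common floor, voom on the recovered reads, *Prm2* as a covariate, fits of 1 set only and some summaries of the term and the weights.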

Additional observations from a re-analysis of the deposited data

Results flagged for a closer look

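In 9 of 90 groups of libraries tested (44 genes and *Prm2*, both groups), 1 library stood apart from the rest by Dixon's ratio of gap to range. The rule removes genes with a high cryptorchid or a low control library, so this count cannot be set against a chance rate. Cryptorchid replicate 2 was the lowest of its group for *Six4* (-0.896 log2 RPM, the next at 1.68), *Ptdss2* (5.67, the next at 6.24) and *Wdr33* (7.08, the next at 7.56). *Zfp229* was lowest in cryptorchid replicate 6 (2.77, the next at 3.49), *Lef1* in replicate 7 (0.777, the next at 2.65), *Col22a1* in replicate 5 (5.0, the next at 5.65) and *Tapbpl* in replicate 3 (1.57, the next at 2.86). Among control libraries, *Actl10* was highest in replicate 5 (2.95, the next at 1.13) and *Ajuba* lowest in replicate 3 (4.3, the next at 4.94).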

How the results depend on the processing

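The rule found 68 genes after median centring, 74 after quantile normalization, 39 of the 44 at a filter of 2, and 49 to 278 when a library was left out: 278 without control replicate 3, 94 without control replicate 2, 70 without control replicate 5, and 86, 98 and 92 without cryptorchid replicates 1, 3 and 6. The members' median difference ran from -1.31 to -0.99 over the fits. Its direction is largely fixed by the rule and is no sign of stability.

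The members with an adjusted *P*-value under 0.05 in limma, 0 in the fit without further terms, were 31 with the replicate block, 5 with a term for the set and 29 with array weights, where 3.35%, 0.183% and 1.32% of all genes passed downward. Same-numbered control and cryptorchid libraries correlated in their deviations from the group means at 0.049 to 0.411 over 5 pairs, and 4 of 5 control libraries correlated best with their own number. No source ties numbers to mice, so the numbers were not taken as pairs, and whether they mark mice was not settled. If they do, the unpaired fits ignore that pairing. At 2-fold and an unadjusted *P*-value of 0.05, 26 members passed, 12 with *Prm2* as a covariate and 18 to 27 in all other fits. Spermatid genes lower numbered 23, 58 with the replicate block, and 15 (without control replicate 5) to 30 (without cryptorchid replicate 6) when a library was left out. Beside these spermatid counts, the share of all genes was taken in the fit without further terms only (2.36%).

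Members with an interaction *P*-value under 0.05 numbered 0, 1 after quantile normalization, and 0 to 1 when a library was left out (1 without cryptorchid replicate 2 or 7). Members with an r above 0 at an exact *P*-value under 0.05 numbered 2, 1 after quantile normalization, 1 without the 2 farthest libraries, and 1 to 3 when a library was left out (1 without cryptorchid replicate 2 or 3). Over deviations of all 12 libraries, with permutations drawn at random within groups, they numbered 6, and 1 member (*Cdk6*, r -0.70) passed with an r below 0. The shares of all genes were not taken for these alternatives, so the counts have no background. *Car2* was among the members that passed with an r above 0 in each case, with an r of 0.96 to 0.99 by Pearson. The cause of these changes was not tested. Depth limits the 6 members with no read in at least 1 cryptorchid library.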
